A study of Mus musculus with 2 samples.

Results

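The genes Mir1892 to Mir1983 are a numbered run of mouse microRNA genes that were annotated from early small RNA sequencing. They were taken by symbol alone: each Ensembl gene of the count tables whose GENCODE M21 symbol is Mir with a number in that range, letter or hyphen endings included. This gave 61 of 2202 microRNA genes. MicroRNA-seq counts came from 2 libraries in 1 group, made from total RNA of adrenal gland, the endocrine organ with a steroid-producing cortex and a catecholamine-producing medulla. The mice were wild-type C57BL/6J from The Jackson Laboratory, with no treatment given, of unknown age and stage. A description calls them female while the sex field reads "not collected", and both libraries carry the same donor identifier, although the labels number them as biological replicates 1 and 2. Whether different animals were used is not stated in the labels. The p-values here only compare these libraries with each other, in the main test against counting error alone. A difference between the libraries may be technical.

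A microRNA is usually cut from a folded hairpin in a longer transcript, first by the nuclease Drosha in the nucleus and then by Dicer in the cytoplasm, and the short mature strand guides Argonaute to messenger RNAs through its seed, here bases 2 to 8. Some hairpins come about in other ways. In a mirtron the hairpin is a whole short intron that splicing releases, and other small RNAs such as tRNA precursors can fold into a hairpin that Dicer accepts. Runs of gene numbers assigned when sequencing first reached rare small RNAs hold hairpins of all these kinds, most of them lowly expressed.

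The hairpins of Mir1981, Mir1982 and Mir1983 are shown because of their annotated positions, over a whole intron or a tRNA gene. They are RefSeq sequences (GRCm38.p6, the assembly that mm10 also names), printed 5′ to 3′ with the annotated mature products in capitals.
Mir1981 (chr1:184822407-184822488, minus strand): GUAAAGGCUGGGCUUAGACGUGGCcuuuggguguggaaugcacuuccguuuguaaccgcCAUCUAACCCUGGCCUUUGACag
Mir1982 (chr10:80828797-80828870, plus strand): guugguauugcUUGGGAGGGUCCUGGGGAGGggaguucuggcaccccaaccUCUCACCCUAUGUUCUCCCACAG
Mir1983 (chr13:21896918-21897049, minus strand): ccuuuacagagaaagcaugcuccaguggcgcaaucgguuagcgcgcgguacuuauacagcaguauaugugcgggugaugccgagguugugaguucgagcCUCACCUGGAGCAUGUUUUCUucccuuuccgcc

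Mir1981 is the whole of an 82-base intron of Marc2, which encodes a mitochondrial amidoxime-reducing enzyme. Both ends of the hairpin lie 0 bases from the ends of the intron, and it starts with gu and ends with ag, the bases of a usual splice donor and acceptor. Its 5p product starts at the first base of the intron, and its 3p product ends 2 bases before the last. Mir1982 is likewise the whole of a 74-base intron, of Oaz1, the antizyme that restrains ornithine decarboxylase and so polyamine synthesis. It also starts with gu and ends with ag, and its 3p product ends at the last base of the intron. Other transcripts of Oaz1 hold the sequence as exon. Mir1983 spans 132 bases, 94 of which are the tRNA gene n-TItat14 in RefSeq. Its mature product covers 13 bases of the tRNA gene and 8 bases past it.

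**Figure D1:**
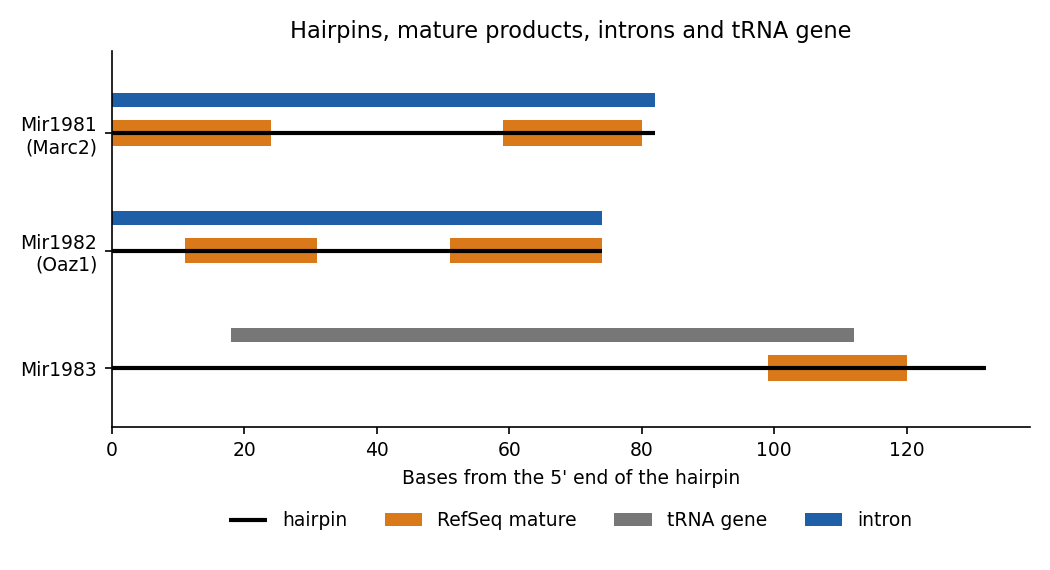
Maps of 3 hairpins in bases from their 5′ end (black lines), with RefSeq mature products (orange), the annotated intron (blue, host gene in brackets) and the tRNA gene (grey). The introns of Marc2 and Oaz1 cover their hairpins from end to end, and the tRNA gene covers 94 of the 132 bases of Mir1983.

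The mature products of the genes with at least 10 counts in both libraries, where RefSeq listed them, are shown to allow comparison of their seeds, which are in capitals.
miR-1981-5p: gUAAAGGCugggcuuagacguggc
miR-1981-3p: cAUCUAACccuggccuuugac
miR-1982-5p: uUGGGAGGguccuggggagg
miR-1982-3p: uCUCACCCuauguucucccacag
miR-1983: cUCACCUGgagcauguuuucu
miR-1968-5p: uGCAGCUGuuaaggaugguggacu
miR-1968-3p: aCCACCUCugcagcuguuaag
miR-1947-5p: aGGACGAGcuagcugagugcug
miR-1947-3p: gCACUGAGcuagcucucccucc
miR-1955-5p: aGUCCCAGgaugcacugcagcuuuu
miR-1945: uCUUCGCGgguacugucgggac
miR-1941-5p: aGGGAGAUgcugguacagaggcuu
miR-1941-3p: cAUCUUAGcaguaucucccau
miR-1964-5p: aGCUGGAGcacaaaagccggug
miR-1964-3p: cCGACUUCugggcuccggcuuu
miR-1934-5p: uCUGGUCCccugcuucguccucu
miR-1934-3p: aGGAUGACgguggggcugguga
miR-1930-5p: aCCUCCAUaguaccugcagcgu
miR-1930-3p: gGUGCAGUuacuguggcugugg
miR-1943-5p: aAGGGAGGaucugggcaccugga
miR-1943-3p: cAGGUGCCagcuccucccuuc

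These are 21 mature sequences of 12 genes. No seed occurs more than once among them. Only 3 of the 21 share a seed with any other mouse mature sequence in the RefSeq table: miR-1947-3p with miR-674-5p and miR-3473d, miR-1983 with miR-412-3p, and miR-1943-5p with miR-149-3p, miR-6967-5p and miR-7016-5p. A partner of each is printed for comparison, with the seed in capitals.
miR-674-5p: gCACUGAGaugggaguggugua
miR-412-3p: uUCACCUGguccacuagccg
miR-149-3p: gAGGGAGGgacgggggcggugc

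The arms of Mir1968 are unusual among the 12 genes of the run with a product on each arm, 9 of them detected. Its 5p and 3p products share the same 13 bases, ugcagcuguuaag, at the start of the former and the end of the latter. The next longest run shared by the arms of a gene was 9 bases, in Mir1947. Reads from those 13 bases alone would fit either arm, and in the hairpin the repeat runs on past both ends of them. Reads that fit both places have several alignments, and such reads are tallied apart from the genes. The counts are for the whole hairpin and do not separate arms.

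The libraries held 9137907 (replicate 1) and 6570375 (replicate 2) counts on the strand of a microRNA gene, and levels are given as counts per 1000000 of these totals (CPM). A count of 0 allows up to 3 counts, which is 0.328 CPM in replicate 1 and 0.457 CPM in replicate 2. Reads with several alignments, 35.9% and 36.0% of the reads, are tallied apart from the genes, and these limits leave them out. No molecular identifiers are described, and limits and intervals cover counting error only. The tissue label was checked on microRNAs typical of single cell types. The neuroendocrine Mir375 (49445 ± 1171 CPM, SD, n = 2) and the endothelial Mir126a (58001 ± 5199 CPM) were high. Mir143, of smooth muscle and fibroblasts, was high too (14230 ± 2163 CPM). The hepatocyte Mir122, the kidney Mir192 and the epithelial Mir200c had 99.8, 35.0 and 20.2 CPM. The striated muscle Mir1b and Mir206 had 4.38 and 0.338 CPM. The erythroid Mir451a had 177 ± 95.7 CPM and the lymphoid Mir150 431 ± 89.1 CPM, and the part of blood or neighbouring tissue in the genes described here was not tested.

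The 61 genes together held 290 CPM in replicate 1 and 294 CPM in replicate 2, or 292 ± 2.54 CPM (SD, n = 2). As a share of all counts on genes this was 0.0290% in replicate 1, with an exact (Clopper-Pearson) 95% interval of 0.0279 to 0.0301, against 0.0294% in replicate 2, with an interval of 0.0281 to 0.0307. The libraries gave nearly the same sum. A gene is called detected here at 10 or more counts in each library. That held for 14 of the 61 genes (23.0%), against 18.3% of all 2202, and these 14 genes held 97.8% and 98.3% of the run's CPM. The 2202 include 1039 genes with symbols not made of Mir and a number, of which 2.31% were detected. They lower the share over all genes, so the 23.0% is not high among genes with a Mir number, whose shares are given below. Another 20 genes had counts that did not reach 10 in either library, Mir1969 reached 10 in replicate 1 alone, and 26 had no count in either.

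Mir1981, the intron of Marc2, led the run with 1505 counts in replicate 1 and 1132 in replicate 2. These are 165 and 172 CPM, a mean of 168 ± 5.37 CPM (SD, n = 2), rank 160 of the 2202 genes. Its share of the run's counts was 56.8% in replicate 1, with an exact 95% interval of 54.9 to 58.7, while replicate 2 had 58.7%, with an interval of 56.4 to 60.9. No other gene of the run reached a mean of 100 CPM, and the next had a mean 6.62-fold lower. The sum of the run is thus mainly the level of a single intron-derived hairpin. Without Mir1981 the other 60 genes summed to 123 ± 2.83 CPM.

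Mir1968 followed, in an intron of Grtp1, a growth hormone regulated TBC domain gene, at chr8:13189031-13189098 on the minus strand. It had 240 and 162 counts, or 26.3 and 24.7 CPM in replicates 1 and 2. Mir1947 lies in an intron of the metallopeptidase gene Lmln (chr16:33105361-33105445, plus strand) and had 128 and 149 counts, or 14.0 and 22.7 CPM. The 2 libraries of Mir1968 lay close together and above both libraries of Mir1947, while those of Mir1947 were far apart. Mir1955, in an intron of Phf21a (chr2:92191977-92192074, plus strand), a histone reader of the LSD1 corepressor complex, had 147 and 71 counts, or 16.1 and 10.8 CPM. Mir1983, which lies outside the genes of GENCODE, had 134 and 75 counts, or 14.7 and 11.4 CPM, and reads of a tRNA fragment over it cannot be told apart from its own. The CPM ranges of Mir1947, Mir1955 and Mir1983 overlapped, so their order is not set by these data. Only the leading 5 genes of the run had a mean of 10 CPM or more.

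The other 9 detected genes had means between 1.66 and 8.12 CPM. Mir1941 is in an intron of the antisense gene Gm35853, opposite an intron of the keratin gene Krt80 (chr15:101369352-101369434, plus strand), and had 58 and 65 counts, or 6.35 and 9.89 CPM. Mir1945 lies outside other annotated genes (chr16:11254368-11254445, minus strand) and had 79 and 46 counts, or 8.65 and 7.0 CPM. The CPM ranges of these genes overlapped, with the higher library being replicate 2 for Mir1941 and replicate 1 for Mir1945. Mir1982, the intron of Oaz1, had 47 and 37 counts, or 5.14 and 5.63 CPM. Its mean of 5.39 ± 0.345 CPM (SD, n = 2) stood far under that of Mir1981, the other whole-intron hairpin. Fragments of Oaz1 transcripts that hold the sequence as exon cannot be told apart from the hairpin in these counts.

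Mir1964 lies in an intron of the zinc finger gene Zfp84 (chr7:29773294-29773376, plus strand) and had 36 and 39 counts, or 3.94 and 5.94 CPM. Mir1934, outside other genes (chr11:69663043-69663125, plus strand), had 41 and 27 counts, or 4.49 and 4.11 CPM. Mir1930 (chr10:77641224-77641307, plus strand) had 29 and 14 counts, or 3.17 and 2.13 CPM. It overlaps an exon of some transcripts of Ube2g2, a ubiquitin-conjugating enzyme of protein quality control at the endoplasmic reticulum. Fragments of that exon can fall in the same counts. Mir1943, in an intron of the membrane protein gene Tmem184b (chr15:79375228-79375300, minus strand), was the lowest, at 15 and 11 counts, or 1.64 and 1.67 CPM. The levels of the detected genes thus ran over a 102-fold range. Of the 13 pairs of neighbours in the order of mean CPM, 6 had libraries that did not overlap and 7 had libraries that did.

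**Figure D2:**
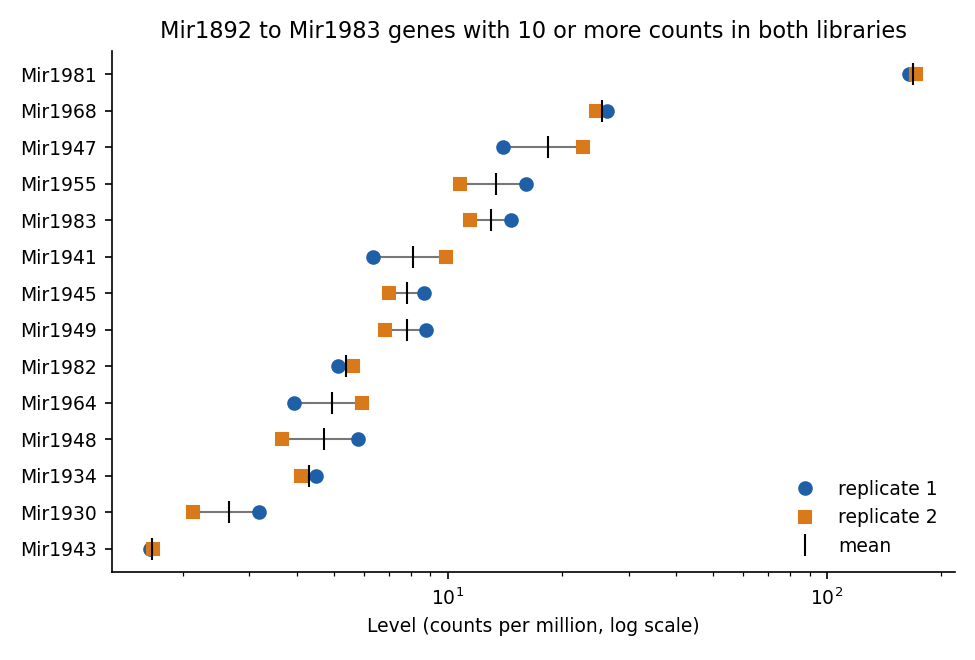
Level of the 14 genes with at least 10 counts in both libraries, in CPM on a log axis (circles replicate 1, squares replicate 2, ticks the mean, lines the range of the 2 libraries). Mir1981 sits apart at 165 and 172 CPM, and the other 13 genes lie at 26.3 CPM or less.

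Mir1949 and Mir1948 complete the detected genes. Mir1949 (chr18:35554567-35554636, plus strand) had 80 and 45 counts, or 8.75 and 6.85 CPM. It overlaps an exon of the non-coding gene AC121821.1, and the annotation lists another gene over it, also named Mir1949, as a small nucleolar RNA, a class that guides modification of other RNAs. Reads of a fragment of that RNA and of the hairpin cannot be told apart in these counts. The microRNA gene Gm49347 lies 2496 bases away on the same strand and had 63 and 106 counts, higher in replicate 2 where Mir1949 was lower. Mir1948 lies in an intron of Ttc39c (chr18:12714811-12714895, plus strand) and had 53 and 24 counts, or 5.80 and 3.65 CPM.

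The undetected genes were at the floor of these libraries. The nearest to detection were Mir1960, in an intron of Hadhb, the beta subunit of the mitochondrial trifunctional protein of fatty acid oxidation, with 9 and 6 counts, and Mir1969 with 11 and 4. Mir1956, over an exon of some transcripts of the cap-binding factor gene Eif4e, followed with 4 and 5 counts, and Mir1931, in an intron of Cdk17, with 5 and 2. All 47 undetected genes together summed to 6.35 CPM in replicate 1 and 4.87 CPM in replicate 2, and besides the 26 at 0, 11 of them had 1 or 2 counts over both libraries. The sum of counts over both libraries was 15 in the highest undetected gene and 26 in the lowest detected one.

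Among the genes at 0 in both libraries were Mir1912 in an intron of Htr2c, a serotonin receptor gene, Mir1963 in an intron of Ryr1, the calcium release channel of skeletal muscle, Mir1962 in an intron of Ptpre and Mir1970 opposite Gprasp1. Mir1963 has an end placed 1 base from the end of its intron but starts 2017 bases into it. Mir1912 has microRNA genes nearby on its strand, of which Mir1264 had 4 and 0 counts and Mir764 none. Mir1954 in an intron of Eng, which encodes the endothelial receptor endoglin, had 0 and 1 counts while the endothelial Mir126a was abundant. Apart from Mir1897, the undetected genes named in the text were chosen after their values were seen, as were Mir1264 and Mir764.

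Some of these zeros cannot be read as absence. Mir1906-1, over an exon of the imprinted non-coding gene Meg3, and Mir1906-2, on chromosome X, share all 61 of their 20-base windows and the same mature product, so that a read within those windows has more than 1 alignment. Windows of 20 bases that recur on either strand in a transcript of a gene elsewhere were found in 19 of the 61 genes, among them 10 of the 26 genes at 0 and 3 of the 14 detected genes. Mir1954 shares 31 of its 67 windows with transcripts of 1545 other genes, and Mir1946b 35 of 114 with 635. Of the detected genes, Mir1934 shares 7 of 64 windows with 451 genes, Mir1983 19 of 113 with 2 and Mir1930 4 of 65 with 1. For 16 genes at 0 no such window was found in transcripts. Sequence outside annotated GENCODE transcripts was not searched. The tRNA gene over Mir1983 comes from RefSeq, and copies of its bases in tRNA genes outside those transcripts were not looked for.

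Among the undetected genes, 2 have seeds of well-known families, shown here with a member of each family.
miR-1961: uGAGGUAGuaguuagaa
let-7g-5p: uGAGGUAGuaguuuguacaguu
miR-1928: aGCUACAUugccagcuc
miR-221-3p: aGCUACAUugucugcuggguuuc

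The seed of miR-1961 is that of 10 mature products in the RefSeq table, those of let-7 and miR-98, and the seed of miR-1928 is that of miR-221-3p and miR-222-3p. Both entries are 17 bases long, shorter than nearly all others in the run, where Mir1952 alone has another product under 20 bases. Mir1961, opposite an intron of Shroom3 (chr5:92788451-92788562, minus strand), had 3 and 0 counts, and Mir1928, outside other genes (chr1:74206554-74206620, minus strand), had none. In these gene counts neither gene adds measurably to the pool of its seed family. Mir1928 shares 18 of its 48 windows with transcripts of 24 other genes, and how many of its reads had several alignments was not tested.

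The numbers of the run fall into 3 blocks with gaps between them, which were told apart after the values had been seen. None of the 18 genes from Mir1892 to Mir1912 was detected, and their highest counts were 2 in replicate 1 and 3 in replicate 2. Of the 40 genes from Mir1927 to Mir1971, 11 were detected (27.5%), and Mir1981, Mir1982 and Mir1983 all were. The blocks also differ in position: 13 of the 18 genes in the lowest block (72.2%) overlap an exon of another gene on their own strand, against 4 of 40 in the middle block, where 23 lie in introns. Examples of the former at 0 in both libraries are Mir1894 in Ppp1r10, Mir1897 in Sox2ot, which also overlaps the annotated small RNA RF01953, and Mir1907 in Trps1, and Mir1903 in Nrp1 had 1 and 3 counts. No test was made of these block differences.

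**Figure D3:**
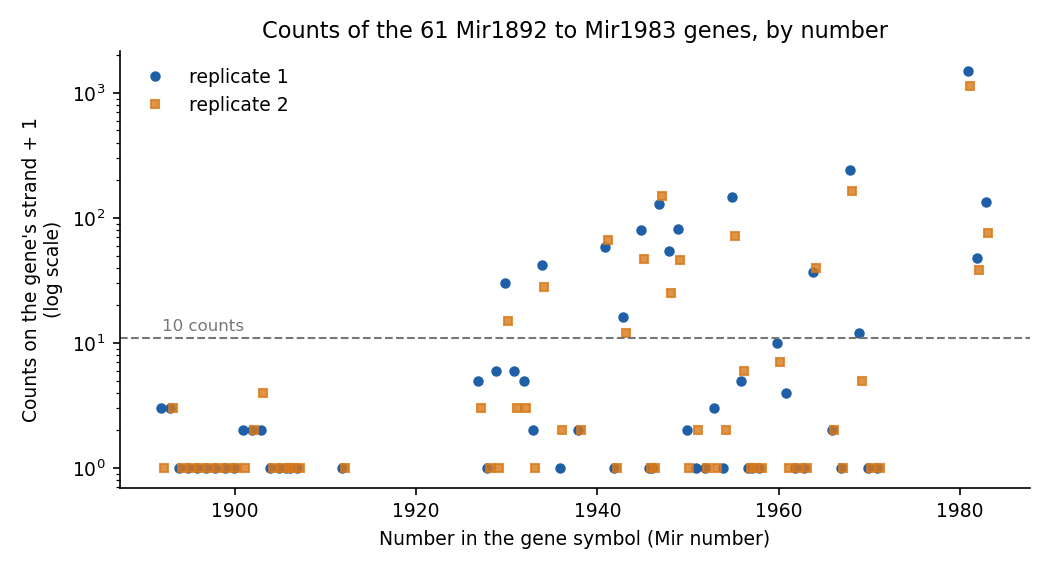
Counts on the strand of the gene plus 1, on a log axis, of the 61 genes against the number in their symbol (circles replicate 1, squares replicate 2, dashed line 10 counts). The 18 genes from Mir1892 to Mir1912 stay at 3 counts or fewer, and Mir1981 stands at the top right with 1505 and 1132 counts.

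By genomic class, 45 of the 61 genes lie on the strand of another annotated gene, 27 in introns only and 18 over an exon. Detected genes made up 8 of the 27 intronic genes, 3 of the 18 exonic genes, 3 of the 12 genes outside other genes and none of the 4 that lie only opposite another gene. The run is scattered: it lies on 19 chromosomes, and 2 of the 61 genes, Mir1912 and Mir1949, have another microRNA gene within 10000 bases. Most of its genes thus stand alone rather than in a microRNA cluster. Such neighbours were not counted for the genes outside the run.

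Across the tables, the share of detected genes differed by number. It was 51.6% of 539 genes with numbers below Mir1892 and 23.0% of the 61 genes described here. It was 26.9% of 93 genes above Mir1983 and up to Mir4999, and 13.2% of 470 genes from Mir5000. The remaining 1039 genes, with symbols not made of Mir and a number, had 2.31% detected and are left out of these groups. The median level of the detected genes was 188 CPM below the run, 7.81 CPM in it, 6.85 CPM in the genes above it and 2.82 CPM from Mir5000. The run thus lay near the genes numbered just above it and far under those numbered below it. These are descriptions of groups of genes in the same 2 libraries, with no test. Hairpins that share windows with transcripts elsewhere, and so can lose reads, made up 31.1% of the run, 43.2% of the genes below it, 30.1% of those just above it and 16.2% from Mir5000.

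**Figure D4:**
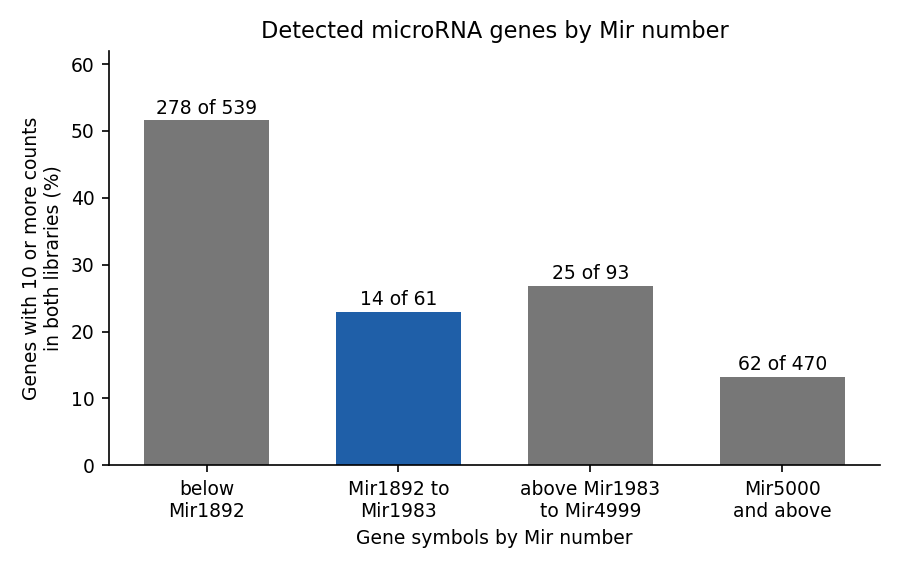
Share of microRNA genes with at least 10 counts in both libraries, in percent, by the number in their symbol, with the numbers of genes above the bars. The Mir1892 to Mir1983 genes (blue, 14 of 61) lie below the lower numbers (278 of 539) and near the next higher ones (25 of 93).

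Whole-intron hairpins were rare in the annotation. Over all 2202 genes, 23 spanned an intron of their strand with both ends within 5 bases of its ends, of which 9 were detected. Mir1981 was second among them, after Mir3102 (541 CPM) and ahead of Mir877 (109 CPM), and Mir1982 was sixth, after Mir3547 (38.3 CPM) and Mir1224 (10.5 CPM). Detected were 2 of 2 such genes in the run, 2 of 2 below it, 2 of 2 just above it and 3 of 15 from Mir5000. Neither of the other 2, with symbols not made of Mir and a number, was detected.

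Hairpin composition and predicted folding were compared between detected and undetected genes. The 12 detected hairpins with a RefSeq sequence had a median GC content of 57.2% (range 40.8 to 67.1), and the 35 undetected ones 48.3% (32.4 to 67.9). The minimum free energy predicted by RNAfold was -51.5 kcal/mol per 100 bases in the detected (range -36.2 to -71.4) and -38.7 in the undetected hairpins (-24.5 to -67.9), a tighter predicted fold in the former with wide overlap. The tightest detected hairpin was that of Mir1943 and the loosest those of Mir1982 and Mir1981, at -36.2 and -37.0 kcal/mol per 100 bases. The order was the same in the other groups of numbers but the gaps were smaller, with -42.9 and -39.6 below the run, -47.2 and -42.9 just above it, and -43.5 and -37.6 from Mir5000. GC content and fold energy are related measures, and neither difference was tested.

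The design allows a comparison of replicate 2 with replicate 1 and no other. For every gene whose counts summed to 20 or more, the split of its counts was set against the TMM-scaled library sizes by a binomial test (exact, two-sided), with Benjamini-Hochberg adjustment over the 426 genes tested. The test knows counting error only and compares libraries, not conditions. Of the 14 genes of the run tested, 3 passed at an adjusted p under 0.05, against 56.1% of all genes tested. Among genes with at least 100 counts over both libraries it was 3 of 8, against 71.4% of 311. Whether a gene passes depends on its counts as well as on its difference. The median absolute log2 ratio was 0.46 in the 14 genes and 0.29 in all 426. Counting error widens the ratios of genes with few counts. Only 8 of the 14 genes had at least 100 counts, against 311 of the 426. The share and the medians therefore do not show whether differences in the run were smaller or larger. Mir1947 was 1.51-fold higher in replicate 2, a log2 ratio of 0.59 (95% counting interval 0.24 to 0.94, adjusted p = 0.00161). Mir1955 was 1.59-fold higher in replicate 1, a log2 ratio of -0.67 (-1.11 to -0.26, adjusted p = 0.00234). Mir1983 was 1.38-fold higher in replicate 1, a log2 ratio of -0.46 (-0.89 to -0.05, adjusted p = 0.0457).

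Mir1981, whose many counts give it the narrowest interval, had a log2 ratio of -0.04 (-0.15 to 0.07), so that large differences in either direction lie outside it. Mir1968 had -0.19 (-0.49 to 0.10) and Mir1982 0.03 (-0.63 to 0.68). The widest interval was that of Mir1943, from -1.34 to 1.15, where the depth cannot show even a doubling. Mir1948 (-0.75) and Mir1941 (0.54) passed an unadjusted p under 0.05 but not the adjustment, at adjusted p = 0.0514 and 0.0771. The median log2 ratio of the 14 genes was -0.21, and of all 426 genes -0.03.

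**Figure D5:**
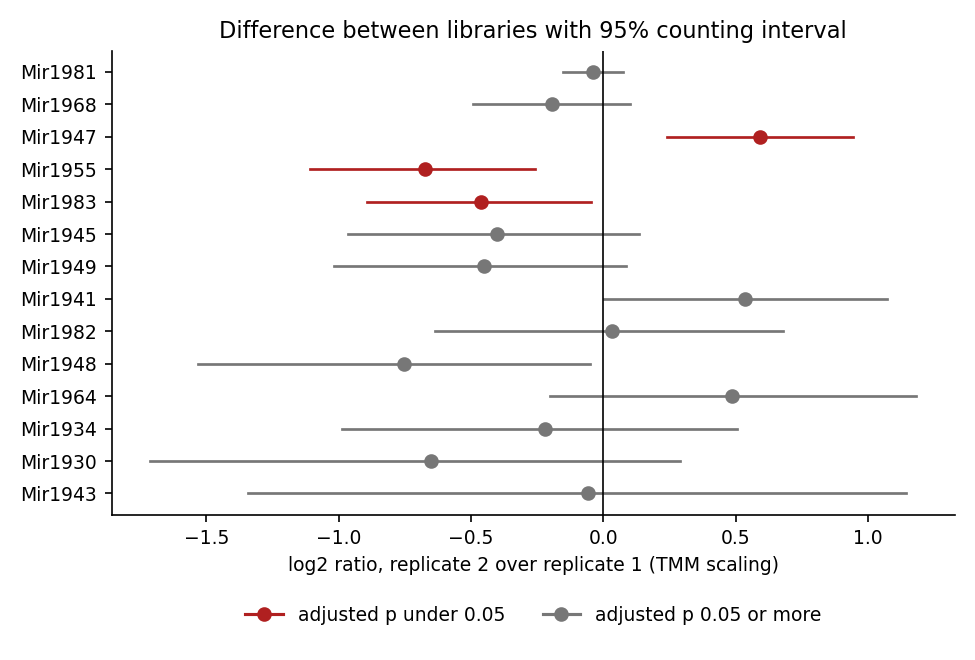
Log2 ratio of replicate 2 over replicate 1 for the 14 tested genes with 95% counting intervals, in order of total counts (red, adjusted p under 0.05 in the exact binomial test). Mir1947 lies to the right of 0, Mir1955 and Mir1983 to the left, and the interval of Mir1981 is the narrowest.

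The calls depend on the scaling and on what error is allowed. Scaled by total counts, which raises each log2 ratio by 0.10, Mir1983 no longer passed (adjusted p = 0.148) and Mir1941 did (adjusted p = 0.0313), so that 2 genes were higher in replicate 2 and 1 in replicate 1 in place of 1 and 2. Over all genes that scaling called 57.0%, with 150 higher in replicate 2 and 93 in replicate 1 in place of 110 and 129. With an edgeR exact test that adds a common dispersion, estimated with the libraries taken as replicates (biological coefficient of variation 0.299), none of the 14 genes passed at an adjusted or an unadjusted p under 0.05, while 27 of the 426 genes passed unadjusted and 0.704% after adjustment. That dispersion is taken from the same difference between libraries that is tested, so few genes could pass. The lack of calls therefore cannot show that the libraries are alike.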

How the data were processed

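The authors deposited, for each of 2 adrenal libraries, 1 table of counts, not normalized, over 2202 microRNA genes on mm10 with GENCODE M21, per the description beside the tables. Adapter trimming is named by the labels' protocols. The aligner and counting tool were not given in the sources used here. The tables have no header. From the totals, the column with the sense strand counts was inferred. The 4 rows that name no gene held 51.2% and 54.6% of reads and were left out of library sizes.

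All 2202 identifiers matched GENCODE M21, which gave symbols, positions and host genes. RefSeq (GRCm38.p6) sequences were matched by symbol for 52 of the 61 genes. Hairpins were folded with RNAfold 2.7.2. Genome sequence was not used. Tests used R 4.3.3 and edgeR 4.0.16, with 0.5 counts added in log2 ratios and Clopper-Pearson intervals. Size factors of DESeq2 1.42.0 were an alternative. On simulated Poisson counts for this comparison, with 200 genes changed, the binomial test called 84.9% of 53 genes at a fold of 2, 68.8% of 48 at 1.5, and 3 of 238 unchanged genes. The simulation held counting error only and used the true library sizes in place of TMM scaling. It therefore does not give the error rate of the calls in the real libraries. The rule for named genes took those with at least 10 counts in both libraries, those past the test, those that span an intron or overlap another small RNA, and microRNA genes within 10000 bases of a detected one. It left other genes to be given by their counts, and the undetected genes that the text singles out (except Mir1897), with the neighbours of Mir1912, were chosen after their values were seen. Genes and lists were chosen with earlier results of these data known.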

Additional observations from a re-analysis of the deposited data

Results flagged for a closer look

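Mir1932, which lies outside other annotated genes (chr11:119390472-119390561, plus strand), had 7 antisense counts in replicate 1, above the 3 counts that a count of 0 allows, and none in replicate 2. On its own strand it had 4 and 2 counts. Antisense counts were otherwise found in 3 genes of the run, Mir1956 (3 and 1), Mir1945 (2 and 0) and Mir1894 (0 and 1). The source of these reads was not tested.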

How the results depend on the processing

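The number of detected genes was 12 to 15 under minimums of 20 and 5 counts, 14 in counts on either strand, and 14 to 15 in single libraries. The summed level was 290 to 294 CPM in single libraries. It was 322 CPM in counts on either strand, where the totals on genes are smaller (8262548 and 6000034), 137 CPM over all reads in the table, 123 CPM without Mir1981, and 271 CPM without genes that share a 20-base window with a transcript elsewhere. The last 2 alternatives were chosen after seeing the data. The planned search for exact copies in the genome was not run, since no genome sequence was used. The number of genes called between the libraries was 3 with total counts, with at least 100 counts and in counts on either strand, 2 with DESeq2 size factors (Mir1983 lost, adjusted p = 0.0541) and with no filter on low counts, and 0 with the edgeR exact test. Of 42 log2 ratios recomputed for the 14 tested genes, 37 kept their direction and side of the threshold. The rest were 1 that became a call (Mir1941), 2 that lost it (Mir1983) and 2 that turned. These changes appeared only with another scaling, by total counts, which raises each log2 ratio by 0.10, or by DESeq2 size factors. Total counts turned the log2 ratios of Mir1981 (0.065) and Mir1943 (0.045), neither called. No paired analysis was possible because there is 1 group. Depth limits the 47 undetected genes, and 2 libraries of the same group allow no statement on animals or conditions.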
